A study of Mus musculus with 4 samples.

Results

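The genes described here encode interferon-induced GTPases of 3 families: the guanylate-binding proteins (GBP), the immunity-related GTPases (IRG) and the Mx proteins. The rule took each probe set of the array whose annotation names exactly 1 gene from a list of 10. Probe sets of their own were found for 6 of the 10, namely Gbp3, Gbp7, Irgm1, Iigp1, Mx1 and Mx2, with 1 probe set each, of 19938 named genes in all. The other 4, Gbp2, Irgm2, Igtp and Tgtp1, were annotated only on probe sets that name a further gene too.

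Interferons are secreted proteins that act through receptors, JAK kinases and transcription factors. Type I interferons act mainly through a complex that contains IRF9 and binds the interferon-stimulated response element (ISRE), and interferon gamma acts through the gamma-activated site (GAS). GBP and IRG proteins assemble on the vacuoles of intracellular pathogens and help to disrupt them, and fibroblasts are among the cells in which this has been studied. Mx proteins are dynamin-related GTPases that restrict viruses. Many inbred mouse strains, C57BL/6 among them, carry defective Mx1 and Mx2 genes, and RefSeq lists both as transcribed pseudogenes.

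The series measured 4 samples of mouse embryonic fibroblasts of C57BL/6 background, prepared at embryonic day 13.5, with 1 Affymetrix Mouse Gene ST array each. They were p63 cells treated with etoposide, p63 cells mock-treated, GFP cells treated with etoposide and GFP cells mock-treated, for 6 h. Every sample lacked BAX and BAK, the effectors of mitochondrial apoptosis, and was transformed with SV40, whose large T antigen binds p53. The p63 cells carried a retrovirus for p63, which is related to p53 and required in stratified epithelia, and the GFP cells the control retrovirus. Etoposide traps topoisomerase II on cleaved DNA. Its dose is 10 µg/mL in the treatment protocol, and the same number per microlitre elsewhere in the labels. Neither the isoform of p63 nor whether a line is 1 clone or a pool is stated in the labels.

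Signals were summarised by RMA in log2 units, in which 1 unit equals a 2-fold change. No condition was replicated, so no test was possible, and differences of at least 1 in size count as calls. A gene was kept where at least 1 array reached 5.87, the median of all values of single-gene probe sets, which left 10698 genes. Signal of a probe set is compared between arrays and not with that of another probe set. Both p63 comparisons use the same pair of lines, so p63 cannot be told apart from another difference between those lines.

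The targeted gene followed the labels, since Trp63 read 9.29 and 8.75 in etoposide- and mock-treated p63 cells, against 5.59 and 4.87 in etoposide- and mock-treated GFP cells. Of the fibroblast markers, 8 of 10 were kept, Col1a1 among them at 12.2 to 12.4 on the 4 arrays. Pdgfra (4.84 to 5.26) and Thy1 (5.45 to 5.64) were below the filter on every array. Between p63 and GFP cells 0 of the 8 were called under either treatment. Of all genes kept, 3.76% (mock) and 0.514% (etoposide) were called lower, and 2.42% and 1.38% higher. Of markers of other cell types, 1 of 11 haematopoietic (Cd68), 1 of 6 simple epithelial (Krt8) and 0 of 6 endothelial genes were kept. The pan-leukocyte marker Ptprc read 3.65 to 4.07, below the filter on every array. Krt8 was higher in p63 than GFP cells by 1.01 when mock-treated and differed by -0.28 when etoposide-treated.

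Upstream sequence was examined for 3 of the 6 genes, Gbp3, Gbp7 and Irgm1. Iigp1 was left out of this search, and no upstream sequence was at hand for Mx1 and Mx2. The sequence is shown as a description of the measured genes that were searched. Whether it bears on their signals was not tested. The stretches run up to the base before a RefSeq transcription start, 5′ to 3′ on the strand of the gene, on GRCm38.p6. For Gbp3 the last 28 bases lie within the annotated gene, which begins upstream of this start. Capitals mark the ISRE core, taken as 2 copies of GAAA (TTTC on the other strand) with 2 bases between them.
Gbp3, chr3:142559969-142560043, plus strand: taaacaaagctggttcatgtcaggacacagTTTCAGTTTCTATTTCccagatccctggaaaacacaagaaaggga
Gbp7, chr3:142530253-142530335, plus strand: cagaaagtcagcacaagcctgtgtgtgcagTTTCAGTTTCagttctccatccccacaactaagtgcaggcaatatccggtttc
Irgm1, chr11:48871421-48871495, minus strand: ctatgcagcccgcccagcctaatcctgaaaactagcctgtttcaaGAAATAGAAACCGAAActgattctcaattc
Gbp3 and Irgm1 held 2 overlapping copies of the core each, and Gbp7 held 1. A second start site of Gbp3 held none in its 250 bases. Of the listed genes, 7 were searched, among them the 4 without a probe set of their own. Iigp1, Mx1 and Mx2 were not searched, so whether they hold the core is not known here. The counts that follow describe the 7 alone and give no rate for the whole list. All 7 held the core within 250 bases before a start, at 7 of 8 start sites, beside 2.98% of 32536 promoters of that length. The GAS core, TTCNNNGAA, which reads the same on both strands, was found upstream of 4 of the 7, including Gbp7 at 2 places, beside 7.04% of all promoters. The genes were listed as interferon-induced, with earlier results of these data known, so a share above that of all promoters is no separate support. A match is a description of these letters and shows no binding.

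The comparison of p63 with GFP cells asks what p63 alters in these fibroblasts, without stress and after etoposide. Gbp3, Gbp7, Irgm1, Iigp1 and Mx2, 5 of the 6 genes, had log2 differences of -1 or below in p63 cells under both treatments, as did 0.486% of the genes kept. Dim signal limits this count. With readings below 5.87 set to 5.87, 3 of the 6 were lower under both treatments (Gbp3, Gbp7 and Irgm1), beside 0.29% of the genes kept, while Iigp1 and Mx2 lost the call and Mx1 was below the filter on every array. In mock-treated cells the lower calls were 5 of 6, beside 3.76% of all genes kept, and in etoposide-treated cells 5 of 6, beside 0.514%. With dim readings set to the filter they were 4 (mock) and 3 (etoposide). None of the 6 was called higher in either comparison, beside 2.42% of all genes kept when mock-treated, 1.38% when etoposide-treated and 0.925% under both treatments. Of the 5 genes kept, 3 (Gbp7, Iigp1 and Mx2) passed the filter through GFP arrays alone, so a difference in this direction was favoured by the filter for them. Fewer cells that express these genes and less RNA in each cell cannot be told apart in bulk samples.

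**Figure D1:**
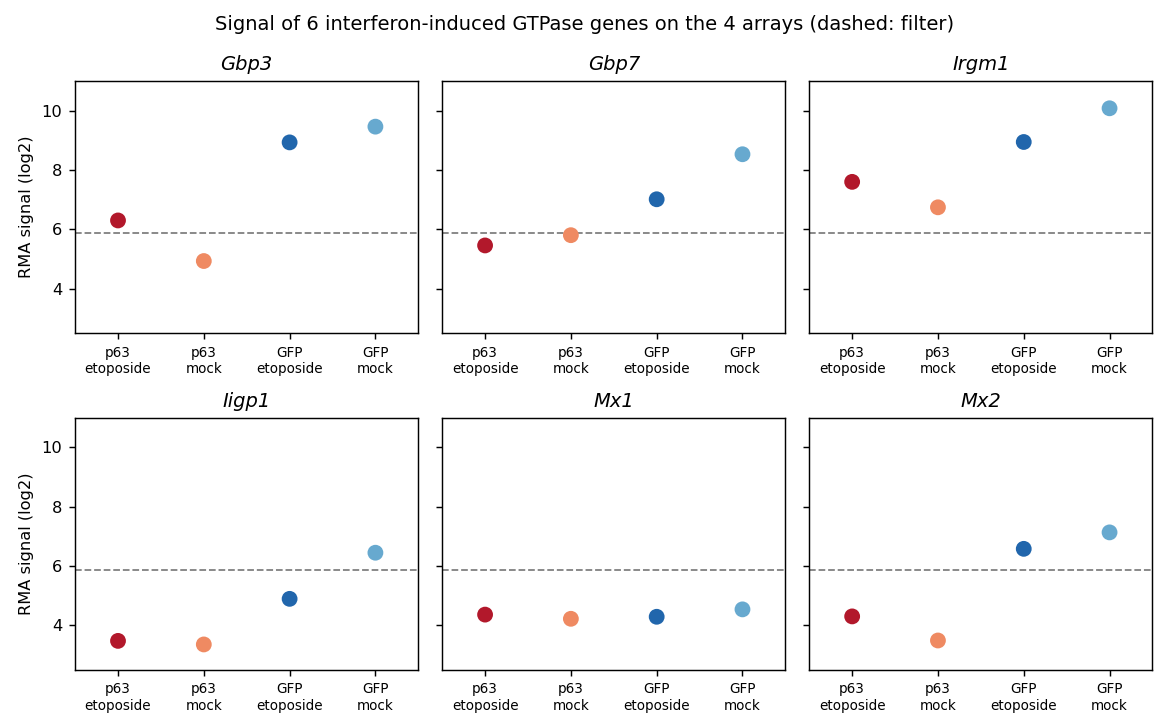
RMA signal (log2, vertical axis) of each gene on each of the 4 arrays (horizontal axis), 1 point per array, with the filter of 5.87 as a dashed line. Both p63 points lie below both GFP points for Gbp3, Gbp7, Irgm1, Iigp1 and Mx2, while the Mx1 points lie between 4.22 and 4.54.

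Gbp3, a guanylate-binding protein of the cluster that also holds Gbp2 and Gbp7, had signals of 6.30 and 4.93 in etoposide- and mock-treated p63 cells, against 8.93 and 9.46 in etoposide- and mock-treated GFP cells. The ranges of the lines were apart by 2.63. The p63 minus GFP difference was -4.53 in mock-treated cells and -2.63 in etoposide-treated cells, each the value ranked 4 from the lowest among 10698 genes. With the dim p63 reading raised to the filter, Gbp3 was at least 12.1-fold lower in mock-treated p63 cells, and it was 6.20-fold lower in etoposide-treated p63 cells. It carried the most negative difference of the 6 genes in both comparisons.

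Gbp7, a guanylate-binding protein reported to act in the control of intracellular bacteria, read 5.45 and 5.80 in etoposide- and mock-treated p63 cells, against 7.01 and 8.53 in etoposide- and mock-treated GFP cells. Both p63 readings lay below the filter and both GFP readings above it. The difference was -2.73 (mock) and -1.56 (etoposide), which is at least 6.32-fold and at least 2.21-fold lower in p63 cells.

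Irgm1 encodes a regulatory IRG protein that restrains the effector IRG proteins on the membranes of the cell itself, and its loss impairs autophagy and resistance to bacteria in mice. It was the only one of the 6 genes above the filter on all 4 arrays, at 7.60 and 6.74 in etoposide- and mock-treated p63 cells, against 8.94 and 10.08 in etoposide- and mock-treated GFP cells. Its difference of -3.34 between mock-treated cells is a 10.1-fold lower signal with p63, and the -1.34 between etoposide-treated cells a 2.54-fold lower one. These values do not depend on readings near background.

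Iigp1, the effector IRG protein Irga6 that loads onto the vacuole of Toxoplasma, read 3.47 and 3.35 in etoposide- and mock-treated p63 cells, against 4.89 and 6.45 in etoposide- and mock-treated GFP cells. Mock-treated GFP cells alone exceeded the filter. Its log2 differences of -3.09 (mock) and -1.42 (etoposide) therefore rest on dim signal. With dim readings raised to the filter, Iigp1 was at least 1.49-fold lower in mock-treated p63 cells, and no fold is given for etoposide-treated cells, where both readings were below the filter.

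Mx2 read 4.30 and 3.49 in etoposide- and mock-treated p63 cells, against 6.58 and 7.13 in etoposide- and mock-treated GFP cells. The lines did not overlap, and both p63 readings were below the filter. The differences of -3.65 (mock) and -2.28 (etoposide) correspond to an Mx2 signal at least 2.40-fold and at least 1.63-fold lower in p63 cells. Mx1 read 4.36 and 4.22 in etoposide- and mock-treated p63 cells, against 4.29 and 4.54 in etoposide- and mock-treated GFP cells, a range of 0.32 over all arrays. At this signal a difference in Mx1 was not detectable.

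Both GFP arrays lay above both p63 arrays for 5 of 6 genes, as they did for 21.2% of all genes kept. The gap between the lines reached 1 for the same 5 genes, and for 0.337% of all genes kept. With dim readings set to the filter it reached 1 for 3 genes, at 2.63 for Gbp3, 1.34 for Irgm1 and 1.14 for Gbp7, and for 0.224% of all genes kept. Over the 5 genes kept, the median p63 minus GFP difference was -3.34 in mock-treated cells, beside -0.14 over all genes kept, and -1.56 in etoposide-treated cells, beside 0.02. With Mx1 included these medians were -3.22 and -1.49, and over the 5 genes with dim readings set to the filter they were -2.66 and -1.14. The mock-treated p63 array had the lowest SD over all probe sets, 2.28 against 2.37 to 2.39 on the others. Centring the arrays on their medians moved the median of all genes kept in mock-treated cells from -0.14 to 0.07, and neither centring nor cyclic loess took away a call of these 5 genes in either p63 comparison.

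**Figure D2:**
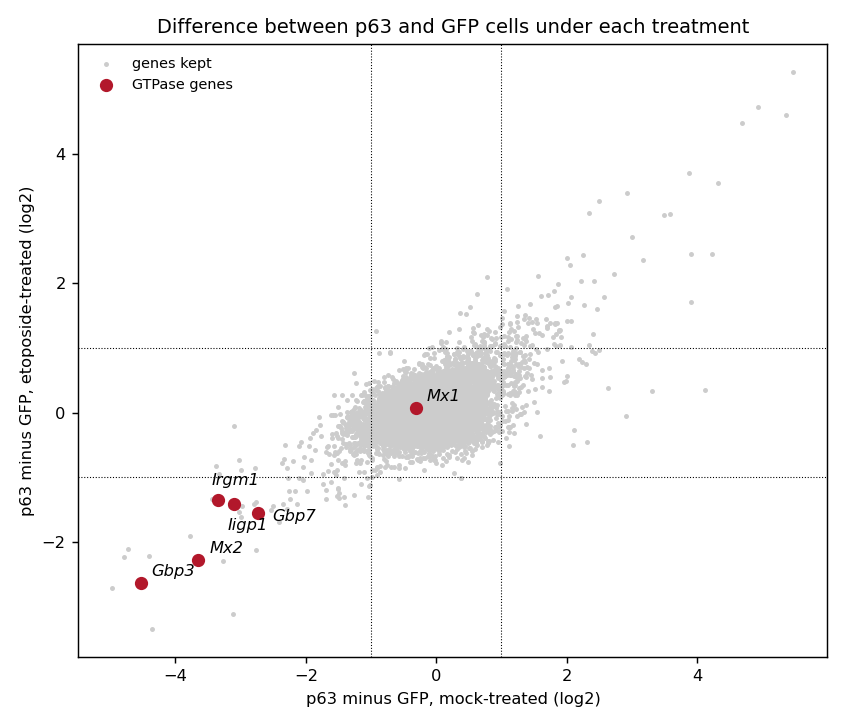
Difference between p63 and GFP cells (log2) after mock treatment (horizontal) and after etoposide (vertical), with 1 grey point for each gene kept, red points for the 6 GTPase genes and dotted lines at 1 and -1. Gbp3, Gbp7, Irgm1, Iigp1 and Mx2 lie below -1 on both axes, and Mx1 lies at -0.32 and 0.07.

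Etoposide was set against mock treatment to ask how DNA damage acts on these cells. The 6 GTPase genes had no common direction over the lines. In GFP cells the etoposide difference was negative for 6 of 6, and in p63 cells it was positive for 5 of 6, Gbp7 being the exception. With arrays centred it was positive in p63 cells for 3 of 6 (Gbp3, Irgm1 and Mx2), since Iigp1 moved to -0.08 and Mx1 to -0.06. Iigp1, Mx1, Mx2 and Gbp7 had both p63 readings below the filter, so their signs in p63 cells rest on dim signal. In p63 cells 1 of 6 genes, Gbp3, was called higher, beside 6.28% of all genes kept, and 0 of 6 lower, beside 1.33%. In GFP cells 3 of 6 genes, Gbp7, Irgm1 and Iigp1, were called lower, beside 2.12% of all genes kept, and 0 of 6 higher, beside 3.52%. With dim readings raised to the filter 2 genes kept the lower call in GFP cells, Gbp7 and Irgm1, and Iigp1 stood at -0.58. In both lines together 0 of 6 were called higher, beside 2.57%, and 0 of 6 lower, beside 0.608%. The p63 minus GFP comparisons use the same arrays and are not independent of these.

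Iigp1 had an etoposide difference of 0.12 in p63 cells and -1.56 in GFP cells, where the etoposide reading of 4.89 was below the filter. For Gbp7 the differences were -0.35 in p63 cells and -1.52 in GFP cells, where the signal was 2.87-fold lower between readings that both exceeded the filter. Irgm1 differed by 0.86 in p63 cells and by -1.14 in GFP cells, a 1.81-fold higher and a 2.20-fold lower signal. Gbp3 differed by 1.37 in p63 cells and -0.53 in GFP cells, and its value in p63 cells was 0.43 with the dim mock reading raised to the filter, so its call is lost there. Mx2 stood at 0.81 and -0.55 in p63 and GFP cells, with both p63 readings below the filter. Mx1 stood at 0.14 and -0.25. Among the genes above the filter on both arrays of a line, Irgm1 in both lines and Gbp3, Gbp7 and Mx2 in GFP cells carry the etoposide comparison.

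The difference of differences, the p63 line's etoposide difference less the GFP line's, was positive for 6 of 6 genes and called higher for 5 of 6, beside 2.84% of all genes kept, and 0 were called lower, beside 1.09%. It was 1.996 for Irgm1, 1.90 for Gbp3, 1.68 for Iigp1, 1.37 for Mx2, 1.17 for Gbp7 and 0.39 for Mx1. For the 5 genes kept the same quantity is the amount by which the gap between the lines was narrower in etoposide-treated than in mock-treated cells. For Mx1 the p63 minus GFP difference changed sign, from -0.32 (mock) to 0.07 (etoposide). With dim readings raised to the filter, 2 of 6 genes were still called, Irgm1 at 1.996 and Gbp7 at 1.52, and with arrays centred Gbp7 was not called, at 0.88. The median of all genes kept was itself 0.20 and moved to -0.10 with arrays centred.

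**Figure D3:**
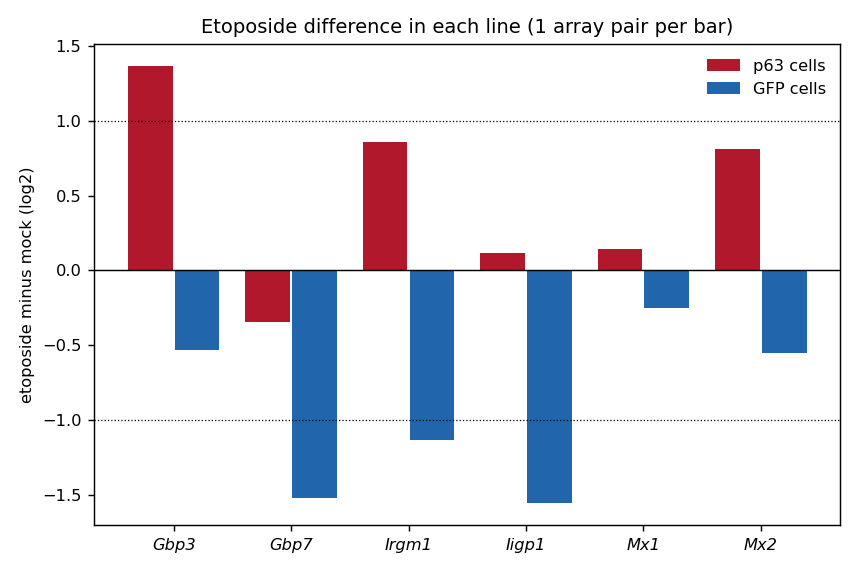
Etoposide minus mock difference (log2, vertical axis) of each GTPase gene in p63 cells (red) and GFP cells (blue), with 1 array pair behind each bar and dotted lines at 1 and -1. The blue bars of all 6 genes are below 0, and Gbp7 at -0.35 is the one red bar below 0.

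The remaining genes of the pathway were taken from lists, in the order in which the pathway runs. Of 12 interferon genes with a probe set, 10 were below the filter on every array, Ifnb1 (2.88 to 3.30) and Ifng (3.85 to 4.39) among them. The pair kept, Ifna5 and Ifnl2, differed between p63 and GFP cells by 0.32 and -0.37 when mock-treated and by -0.29 and -0.66 when etoposide-treated. Transcripts of the interferons were not detectable as different between the lines at this signal.

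Of the 14 receptors, JAK kinases, STAT and IRF factors, all kept, 2 were lower in p63 cells under both treatments, beside 0.486% of all genes kept. None was higher under either treatment, beside 2.42% (mock) and 1.38% (etoposide). The 2 lower genes were Irf7, which drives type I interferon genes, and Irf9, the DNA-binding subunit of the complex that binds the ISRE. Irf7 read 5.77 and 5.45 in etoposide- and mock-treated p63 cells, against 8.06 and 8.72 in etoposide- and mock-treated GFP cells. Irf9 read 6.23 and 6.89 in etoposide- and mock-treated p63 cells, against 7.92 and 9.30 in etoposide- and mock-treated GFP cells. Stat2, named here after its values were seen, was the third gene of the list called lower in mock-treated p63 cells, by -2.33, and stood at -0.72 in etoposide-treated ones. These mock calls, 3 of 14, stand beside 3.76% of all genes kept. The list's median difference was -0.21 (mock) and -0.13 (etoposide), beside -0.14 and 0.02 over all genes kept. Of 7 genes kept that restrain the pathway, 1 was lower under both treatments, beside 0.486% of all genes kept. It was the protease Usp18, which removes ISG15 from proteins, at -3.80 (mock) and -2.75 (etoposide) with its dim p63 readings set to the filter.

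The lists of interferon targets overlap in biology, since many of these genes answer both kinds of interferon. Of 20 kept targets associated with type I interferon, 10 were lower in p63 cells under both treatments, where 0.486% of all genes kept were, and 6 were with dim readings set to the filter, where 0.29% were. The medians were -2.27 (mock) and -1.08 (etoposide) over the 20, of which 11 passed the filter through GFP arrays alone, and -2.16 and -0.91 over all 22 with a probe set. The values that follow have p63 readings below 5.87 set to it, which makes those that rest on such a reading lower bounds in size. Rtp4, a chaperone of membrane receptors, stood at -4.14 (mock) and -2.56 (etoposide), and Trim30a at -2.59 and -0.92, which is no call after etoposide. Ifit1, which binds viral RNA, stood at -4.24 (mock) and -2.11 (etoposide), and Oasl2, a relative of the RNA-sensing OAS enzymes, at -3.80 and -1.83. Bst2, the membrane tether of budding viruses, was above the filter on every array and at -3.12 under both treatments, and Xaf1, an antagonist of XIAP, at -2.58 (mock) and -0.95 (etoposide).

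Of 11 kept targets associated with interferon gamma, 1 was lower under both treatments, beside 0.486% of all genes kept, with medians of -0.79 (mock) and -0.55 (etoposide). It was Psmb8, an immunoproteasome subunit, at -1.61 (mock) and -1.08 (etoposide). Both its p63 readings were dim, and set to the filter they gave -1.38 and -0.94, so that 0 of the list were lower under both treatments. In mock-treated cells 5 of the 11 were called lower, beside 3.76% of all genes kept, and 1 higher, beside 2.42%. In etoposide-treated cells 1 was lower, beside 0.514%. Cxcl10, at -3.38 (mock) and -0.83 (etoposide), and B2m, at -1.65 and -0.91, were above the filter on every array. Both are named here after their values were seen. Tap1, the peptide transporter, read 9.09 and 6.40 in etoposide- and mock-treated p63 cells, against 9.12 and 8.01 in etoposide- and mock-treated GFP cells, and was higher after etoposide in both lines. Of the GTPase genes, none was called higher after etoposide in both lines. Whether the GTPase genes differ from either list of targets was not tested.

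Of 10 other interferon-induced GTPase genes with a probe set, 9 were below the filter on every array, including Gbp2b, Gbp4, Gbp5, Gbp8, Gbp9 and Gbp11. The 1 kept, Gm4951, read 3.48 and 3.78 in etoposide- and mock-treated p63 cells, against 4.34 and 6.57 in etoposide- and mock-treated GFP cells, with its reading above the filter in mock-treated GFP cells alone. With dim readings set to the filter it differed by -0.70 (mock). The large GTPases that fibroblasts make without interferon served as relatives of the Mx and IRG proteins. Of these, 0 of 8 kept were called in any of the 4 pairwise comparisons. Over all genes kept, 0.514% to 6.28% were called per comparison and direction, so 0 of 8 is near the share of all genes. The p63 minus GFP medians of the 8 were -0.08 (mock) and 0.07 (etoposide). Dnm1l, which divides mitochondria, stood at -0.22 (mock) and -0.01 (etoposide), Atl3, an atlastin of the endoplasmic reticulum, at -0.18 and 0.59, and Irgq, an IRG relative, at -0.08 and -0.18.

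The ubiquitin-like conjugation machinery of autophagy is needed to place GBP and IRG proteins on vacuoles. Of its 10 genes, all kept, 0 were called in any of the 4 pairwise comparisons. This too is near the share of all genes kept, 0.514% to 6.28% per comparison and direction. The p63 minus GFP medians of the 10 were -0.07 (mock) and 0.17 (etoposide). Atg5 stood at -0.70 (mock) and 0.09 (etoposide), Gabarap at 0.19 and 0.43, and Map1lc3a at 0.15 and 0.56. Of 11 inflammasome and ubiquitin partners of GBP proteins, 7 were below the filter on every array, Casp1, Casp4 and Aim2 among them. The 4 kept included Trim21, an antibody receptor and ubiquitin ligase, at -1.38 (mock) and -0.48 (etoposide), or -0.83 and -0.26 with dim readings set to the filter, Traf6 at -0.48 and 0.21 and Sqstm1 at -0.29 and -0.21.

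**Figure D4:**
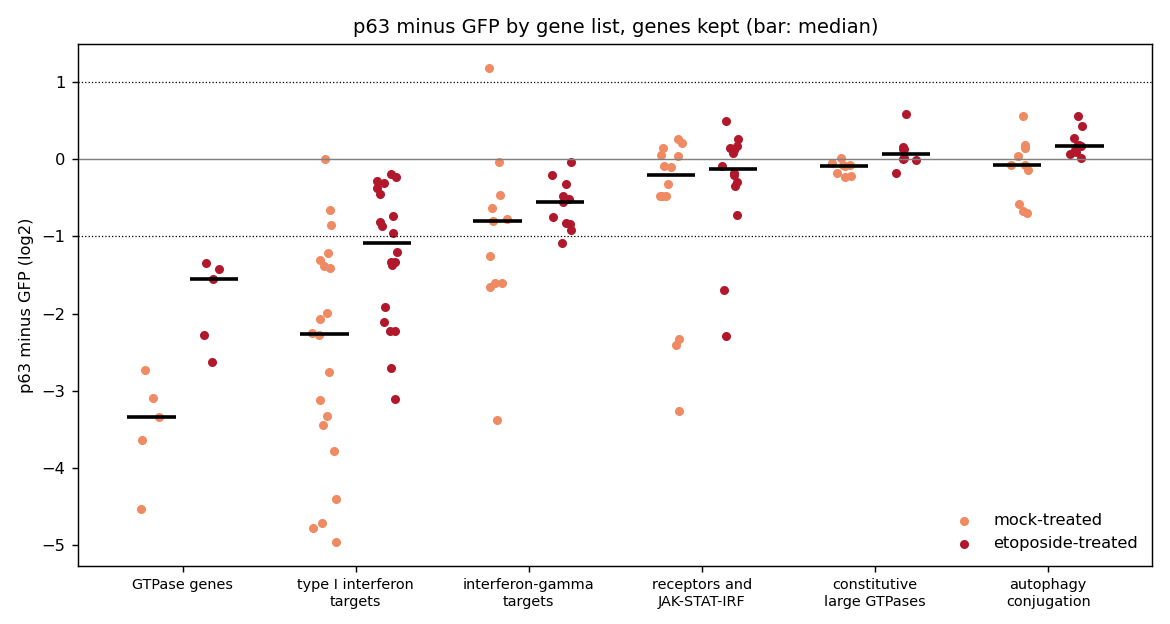
Difference between p63 and GFP cells (log2, vertical axis) for the genes kept of each list (horizontal axis), in mock-treated (light) and etoposide-treated (dark) cells, with 1 point per gene, a black bar at the median and dotted lines at 1 and -1. The medians of the GTPase genes (-3.34 and -1.56) and of the type I interferon targets (-2.27 and -1.08) lie below -1 among the genes kept, though the etoposide median of these targets is -0.91 without the filter, and those of the constitutive large GTPases (-0.08 and 0.07) lie near 0.

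The 5 GTPase genes kept shared a profile over the 4 arrays in which mock-treated GFP cells were highest and etoposide-treated GFP cells second for each gene. Mock-treated p63 cells were lowest for Gbp3, Irgm1, Iigp1 and Mx2, and etoposide-treated p63 cells for Gbp7. With 1 array a condition, the order of neighbouring conditions has no measured spread behind it. The mean of the 5 profiles, each centred on the gene's own mean, was -1.05 and -1.61 in etoposide- and mock-treated p63 cells, against 0.80 and 1.86 in etoposide- and mock-treated GFP cells. Likeness to it was measured as the root-mean-square distance over the 4 arrays, which ranged from 0.19 (Irgm1) to 0.57 (Gbp3) among the 5 genes and had a median of 1.37 over all genes kept. The 5 genes make up the mean they are measured against, so their own closeness is partly built in, and the mean includes dim readings of Gbp3, Gbp7, Iigp1 and Mx2.

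The 6 nearest genes outside the family were Irf7 (0.18), Xaf1 (0.25), Ddx60 (0.27), Plscr2 (0.34), Lgals3bp (0.37) and Rnf213 (0.38). In all, 25 further genes lay no farther from the mean profile than Gbp3 did. Rnf213, a large ATPase and ubiquitin ligase, and Lgals3bp, a secreted glycoprotein, were above the filter on every array. Rnf213 read 8.83 and 7.89 in etoposide- and mock-treated p63 cells, against 9.72 and 10.89 in etoposide- and mock-treated GFP cells. Ddx60, a helicase-like gene, and Plscr2, a phospholipid scramblase, were below the filter except in mock-treated GFP cells. Distances rest on 4 arrays and describe a pattern.

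**Figure D5:**
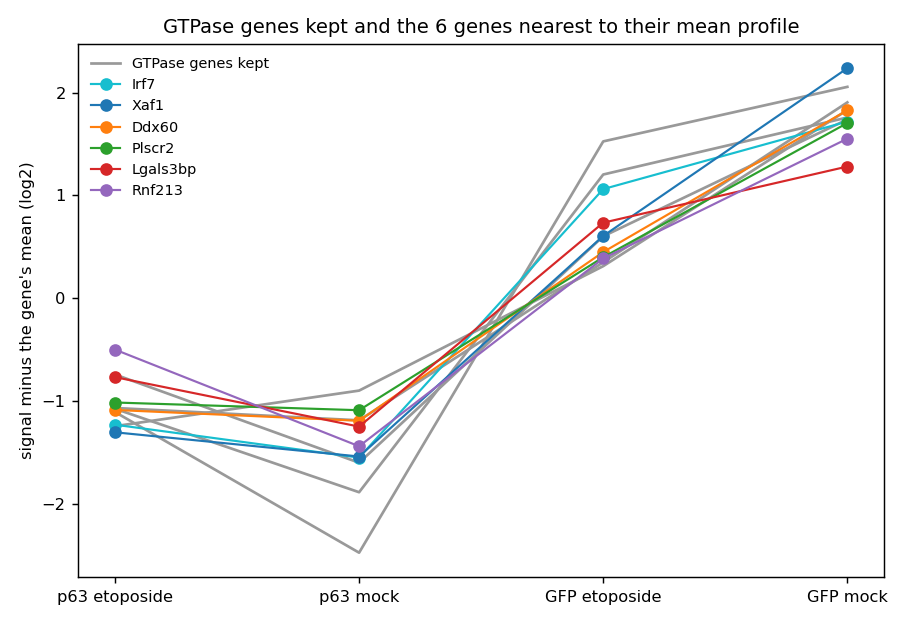
Signal minus the gene's own mean over the 4 arrays (log2, vertical axis) on each array (horizontal axis), with grey lines for the 5 GTPase genes kept and coloured lines with points for the 6 nearest other genes. Every line is highest in mock-treated GFP cells and negative in both p63 conditions.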

How the data were processed

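Total RNA was amplified with a NuGEN kit before hybridisation, per the labels' protocols. The authors ran RMA (Affymetrix Expression Console), as the submitters' processing notes state. The deposited signals are log2 values, a base inferred from their range of 1.27 to 14.4. RMA makes the distributions of probe intensities equal before it summarises them, so a shift shared by most genes is largely removed before deposit. The deposited probe-set values still differed between arrays, with SDs of 2.28 to 2.39.

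Of 35512 probe sets, 21789 had 1 gene symbol in the platform annotation of 2016, 1621 had several and 12102 were not listed and are unnamed here. Entrez identifiers matched RefSeq (GRCm38.p6) for 21698. The probe set with the highest mean represented a gene. The 5 comparisons are differences of log2 values, called at 1, with no test. All members were named, and of each list the genes called the same way in both pairs of a factor, at most 6, or up to 3 with the largest p63 difference. The members and lists were chosen with earlier results of these data known. The lists not shown in full held markers and targeted genes, of which Bax and Trp53 were not analysed here. A planned search of protein sequences was not run. Alternatives covered filter, threshold, probe sets, centring, cyclic loess (limma 3.58.1) and raising dim readings. The calls were checked on simulated data. Python 3.11.15 and pandas 2.3.3 were used. Precision is limited by the number of arrays.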

Additional observations from a re-analysis of the deposited data

Results flagged for a closer look

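For 5 of the 6 genes the etoposide difference had opposite signs in the 2 lines, and the difference between the lines was not tested, since each condition is 1 array. Irgm1 stood at 0.86 in p63 cells and -1.14 in GFP cells, Gbp3 at 1.37 and -0.53, Mx2 at 0.81 and -0.55, Iigp1 at 0.12 and -1.56, and Mx1 at 0.14 and -0.25. With arrays centred, 3 of 6 genes had opposite signs, since Iigp1 (-0.08) and Mx1 (-0.06) turned negative in p63 cells. The median of all genes kept also had opposite signs, at 0.10 in p63 cells and -0.08 in GFP cells. Of these 5 genes, Irgm1 alone was above the filter on every array.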

How the results depend on the processing

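Among differences of single genes, 141 of 165 moved by less than 0.25 (log2) under an alternative, 24 moved by more, and no called difference changed its sign. Of the 165, the 30 without a filter, 15 at the stricter filter and 30 with the median of probe sets could not move. Those settings leave a gene's values unchanged, since each gene has 1 probe set. With dim readings raised to the filter 16 moved and 14 did not, with arrays centred 6 and 24, and with cyclic loess 2 and 28. With arrays centred the uncalled etoposide differences of Iigp1 and Mx1 in p63 cells turned to -0.08 and -0.06. With a filter at the 75th percentile, 7.82, 3 members remained (Gbp3, Gbp7 and Irgm1), with 3 called lower in mock-treated and 3 in etoposide-treated p63 cells and 3 called higher in the difference of differences. With dim readings raised to the filter, 3 were lower in etoposide-treated p63 cells, 0 were higher after etoposide in p63 cells and 2 were called in the difference of differences. After etoposide in GFP cells 2 were lower under that setting. The medians under that setting were -2.66 and -1.14 for p63 minus GFP in mock- and etoposide-treated cells, 0.00 and -0.58 for etoposide minus mock in p63 and GFP cells, and 0.96 for the difference of differences. At a 1.5-fold threshold 3 genes were higher after etoposide in p63 cells. Without a filter the etoposide medians were 0.48 in p63 and -0.85 in GFP cells. With arrays centred the median difference of differences was 1.38. An alternative chosen after seeing the data added the 4 probe sets that name a member and a further gene. Then 9 probe sets were lower in mock-treated p63 cells, beside 3.76% of all genes kept. In the difference of differences 8 were called higher, beside 2.84%. The medians were 0.48 and -0.66 for etoposide in p63 and GFP cells and 1.37 for the difference of differences. The cause of the remaining changes was not tested. Dim signal limits Iigp1, Mx1 and Mx2, and the p63 readings of Gbp7 and of Gbp3 when mock-treated. No paired analysis was possible because each group is 1 array.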

Other observations

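The 4 probe sets that the annotation assigns jointly to a listed GTPase gene and a further gene cannot be credited to 1 gene. They name Irgm2 with Igtp, both listed, Gbp2 with Gbp2b, and Tgtp1 with Tgtp2, the last pair more than once. Gbp2b and Tgtp2, which are not listed, are interferon-induced GTPase genes too. The Irgm2 and Igtp probe set gave the most negative p63 minus GFP difference under each treatment. Their p63 minus GFP differences ran from -3.50 to -1.96 in mock-treated cells and from -2.13 to -0.93 in etoposide-treated cells. Of them, 4 (mock) and 2 (etoposide) were lower by at least 1, beside 3.76% and 0.514% of all genes kept. Probe sets of the same gene pair are not separate genes in these counts. Their etoposide differences ran from 0.17 to 0.90 in p63 cells and from -0.78 to -0.47 in GFP cells. In sign these joint probe sets were alike in every comparison.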
